A study of Xenopus laevis with 14 samples.

Results

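Genes of the motile cilium were followed through animal caps of the frog Xenopus laevis, pieces of embryonic ectoderm cut from the top of the early embryo. The genes were taken by symbol from the deposited RNA table: those that begin with dnah, dnai, dnal, dnaaf, tekt, rsph, spag or efhc, and those that begin with ift or bbs followed by a number. The rule found 54 genes among 19921, and all 54 passed the filter on low values, a mean of at least 10 normalized reads over the 10 libraries. By role, 31 code for parts of the axoneme or for factors that assemble it, and 21 for the transport machinery of cilia. The remaining 2, spag7 and spag9, share the prefix but have no ciliary role assigned here.

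A motile cilium is built around an axoneme, a ring of doublet microtubules that usually surrounds a central pair. Outer and inner dynein arms on the doublets produce the beat, tektins and other proteins line the doublet wall, and radial spokes link the doublets to the central pair. Intraflagellar transport trains carry material along the cilium, and the BBSome is an adaptor complex for membrane cargo. Primary cilia, which do not beat and stand on most cells, need the transport genes too, while most axoneme genes serve motile cilia. In the frog embryo, multiciliated cells of the epidermis drive fluid over the skin, and motile cilia also stand on cells of the neural tube floor plate.

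There were 5 groups of 2 RNA libraries. Untreated caps had no injection named in the labels. The other 4 groups came from embryos injected at the 2-cell stage with RNA for noggin, a secreted BMP inhibitor that steers ectoderm towards neural tissue, and their caps were treated with retinoic acid, a posteriorizing signal. The second group had this treatment alone (noggin caps). The other 3 groups also received RNA for prdm12, a zinc-finger transcription factor of spinal cord progenitors and sensory neurons, for prdm12 with the VP16 activation domain, or for prdm12 with the engrailed repressor domain, engR. All caps were dissected at about stage 10, and the fusions were tested by overexpression in a tissue that mixes cell types. The labels of engR replicate 1 conflict, with engR in the title and VP16 under treatment, and it was kept under its title.

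Libraries held between 11986697 and 15893668 reads on genes, and every value was a whole number of reads times 1 factor per library. Records that did not align uniquely made up 44.0% and 34.3% in untreated caps, 34.1% and 34.2% with engR, and between 23.8% and 27.9% in the other 6 libraries. The prdm12 line held 9.26 and 1.09 normalized reads in untreated caps and 29.3 and 77.8 in noggin caps. It held 160 and 209 in prdm12 caps, 379 and 250 in VP16 caps, and 262 and 160 in engR caps. With limma these increases over noggin caps were not called (adjusted p = 0.699, 0.530 and 0.230). DESeq2 called those with VP16 and engR (adjusted p = 0.0119 and 0.0271). Whether this line measures the injected RNA was not tested. The frog has pairs of related gene copies whose reads share 1 line in the table, and genes carry the Ensembl identifiers of Xenopus tropicalis. All values below are normalized reads, and they compare libraries for 1 gene, since no transcript lengths were used to compare genes. Each called gene had an adjusted p under 0.05 with limma in 1 fit across 12937 genes, and fold changes are differences of log2(value + 1), given with their standard error (SE). Separate clutches or cultures are not named for the replicates, so the tests measure the spread between these libraries, which may be technical.

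**Figure D1:**
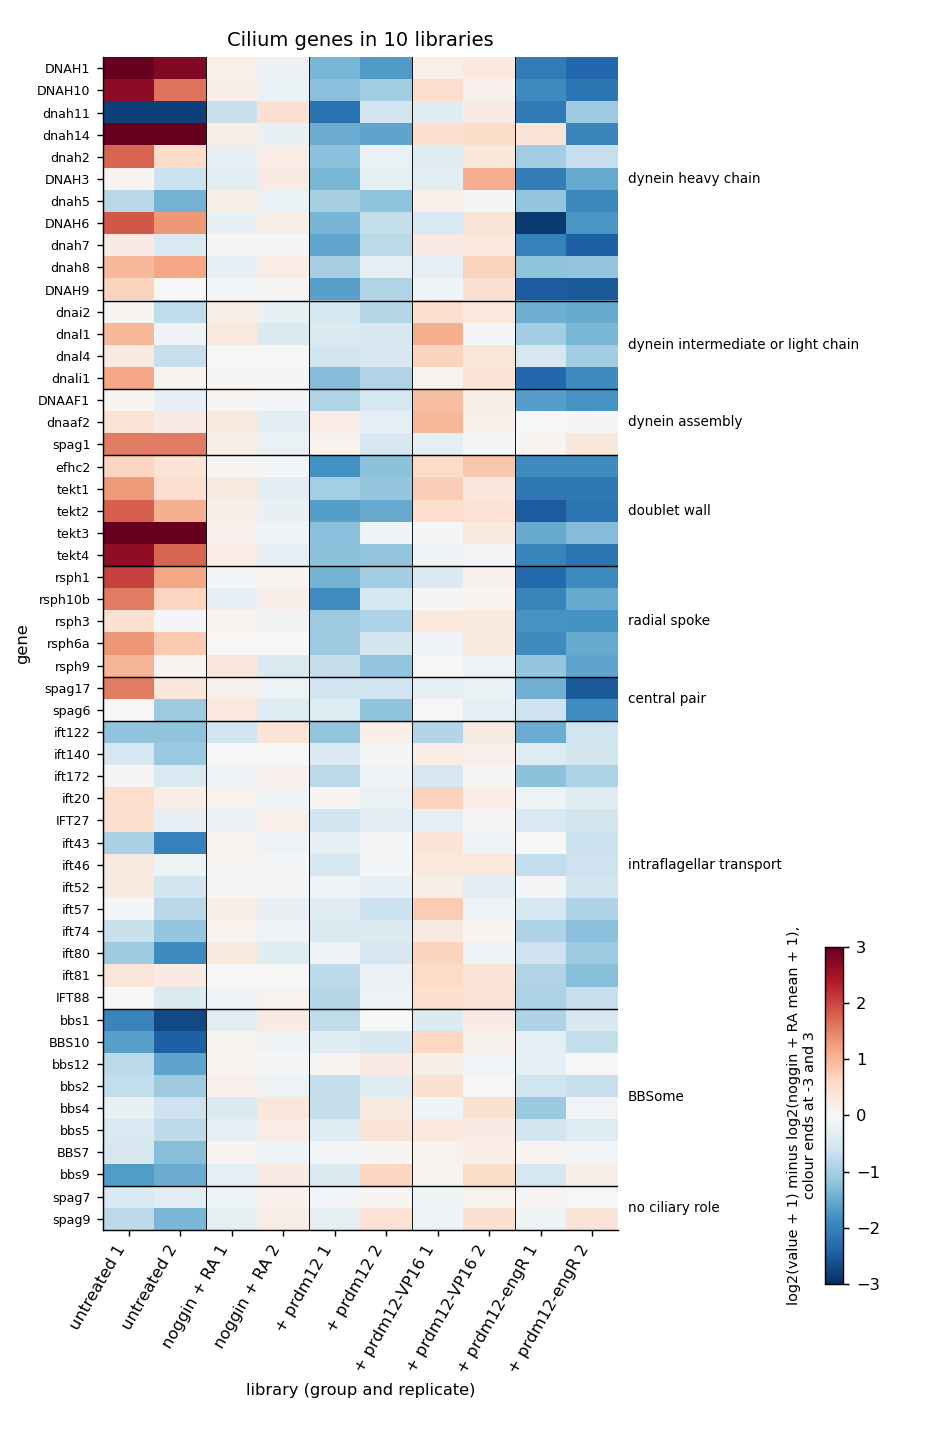
Level of the cilium genes (rows, grouped by role, with 1 of the 54 not shown) in each of the 10 libraries (columns), as the difference in log2(value + 1) from the mean of the noggin caps. The axoneme rows are mostly dark blue in the engR columns, with spag1 and dnaaf2 near white, and the transport rows are paler there.

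At neural induction, the medians of the axoneme and transport genes went in different directions. In noggin against untreated caps, 24 of 54 genes were called, 12 higher and 12 lower, beside 43.7% of all genes tested, so the total lies near the background. The direction differed by role: 12 of 31 axoneme genes fell and 2 rose, beside 21.4% of all genes lower and 22.3% higher, while 10 of 21 transport genes rose and 0 fell. The median log2 fold change was -0.61 over the axoneme genes, 0.81 over the transport genes and 0.02 over all genes tested. In bulk caps, fewer cells of a type and less RNA per cell cannot be told apart.

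Among the doublet wall genes, tekt3, which codes for a tektin, had 4146 and 1707 normalized reads in untreated caps and 56.9 and 47.7 in noggin caps. It fell by 5.65 (SE 0.53, limma adjusted p = 7.9e-05), the largest decrease among the 54 genes. The other 3 tektins also fell, by 2.22 for tekt4, 1.44 for tekt2 and 0.92 for tekt1 (adjusted p = 0.000895, 0.00366 and 0.0423). The tekt2 line (ENSXETG00000004373) had 5901 and 3535 reads in untreated caps and 1929 and 1465 in noggin caps, without overlap. Over all 12937 genes, 4565 were lower and 4706 higher without overlap in this comparison. Another doublet wall gene, efhc2 (ENSXETG00000004835), had 3127 and 2661 against 2037 and 1936, a log2 difference of -0.54 that was not called.

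Dynein heavy chains, the motors of the arms, went both ways, with 5 of 11 lower and 2 higher. The inner-arm gene DNAH1 fell from 794 and 639 reads to 104 and 82.0 (log2 fold change -2.93, SE 0.33, adjusted p = 0.000196). The inner-arm genes dnah14, DNAH10 and DNAH6 fell by 4.21, 2.17 and 1.60 (adjusted p = 0.00306, 0.00183 and 0.0230). The dnah14 line had 221 and 96.3 reads in untreated caps and 8.13 and 5.86 in noggin caps. It passed the filter on low values only through the untreated caps, which favours a fall, and the counts of lower genes include it. Of 7 inner-arm genes these 4 were called lower and 0 were called higher, with a median of -1.60, and dnah7 (0.10) and DNAH3 (0.25) lay above 0. The outer-arm gene dnah5 rose instead, from 979 and 652 reads to 1960.2 and 1523 (1.11, SE 0.31, adjusted p = 0.0208). Another outer-arm gene, dnah11, rose from 18.5 and 18.6 to 85.4 and 186 (2.70, SE 0.66, adjusted p = 0.0108). Of the other outer-arm genes, dnah8 fell by 1.09 (adjusted p = 0.0439) and DNAH9 (ENSXETG00000025251), with 946 and 602 against 562 and 624 reads, overlapped between the groups. The median over the 4 outer-arm genes was 0.38. The split by arm was chosen after the values were seen, and the difference between the arms was not tested.

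In the radial spokes, which link doublets and central pair, rsph1 fell by 1.60 and rsph6a by 1.05 (adjusted p = 0.00713 and 0.0204). The central pair genes spag6 and spag17 were not called, with differences of 0.51 and -0.96. Of the factors that assemble dynein arms in the cytoplasm, spag1 fell from 1673 and 1708 to 654 and 507 reads (-1.55, adjusted p = 0.00188), while DNAAF1 and dnaaf2 differed by 0.08 and -0.37 and were not called. None of the 4 dynein intermediate or light chain genes was called, and their differences lay between -0.61 and 0.34. Differences between roles were not tested.

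In the transport machinery, the BBSome list, which includes the assembly factors BBS10 and bbs12, had 6 of 8 genes higher and a median of 1.05. The gene bbs1 went from 109 and 65.7 reads in untreated caps to 350.4 and 517 in noggin caps (2.32, SE 0.42, adjusted p = 0.00242). BBS10, whose chaperonin-like product helps the complex to assemble, rose from 51.6 and 28.5 to 173 and 148 (2.03, adjusted p = 0.00309). The groups of libraries did not overlap for either gene, as for 4706 of all 12937 genes in the same direction. Smaller increases were called for bbs9 (1.55), bbs12 (1.19), bbs2 (0.90) and BBS7 (0.87). Of 13 intraflagellar transport genes, 4 rose, beside 22.3% of all genes: ift43 (1.50), ift80 (1.46), ift74 (0.91) and ift140 (0.81). The median over the 13 was 0.22, and it was -0.09 within replicate 1 and 0.58 within replicate 2. The train component IFT88 had 1233 and 929 reads against 1159 and 1339, with overlap.

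Both the counts and the medians varied with the libraries. Over all genes, too, fewer were called when any 1 of the untreated or noggin libraries was left out. Without untreated replicate 1 the calls numbered 9 in the axoneme and 8 in transport, without untreated replicate 2 they numbered 15 and 2, without noggin replicate 1 they numbered 10 and 3, and without noggin replicate 2 they numbered 9 and 5. Within replicate 1 the median difference was -1.02 for the axoneme and 0.50 for transport, and within replicate 2 it was -0.46 and 1.01. The 2 untreated libraries themselves differed: replicate 1 was above replicate 2 in 28 of 31 axoneme and 20 of 21 transport genes, against 50.1% of all genes.

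Genes of the same structures outside the symbol rule showed a similar division of counts. Of 38 other axoneme genes, 14 fell and 1 rose (median -0.76), beside 21.4% and 22.3% of all genes. With the replicate number as a block 22 fell and 3 rose, beside 28.7% and 29.6% of all genes. CFAP57, which codes for an inner-arm-associated protein, fell from 1859 and 1408 to 562 and 384 reads (-1.80, adjusted p = 0.00108). Of 25 other transport genes, 8 rose and 1 fell (median 0.48), beside 22.3% and 21.4% of all genes. With the block 10 of them rose and 1 fell, beside 29.6% and 28.7%. The motor subunit kif3a rose from 371 and 247 to 1826 and 2961 reads (2.94, adjusted p = 0.000657). ttc21b, a subunit of the transport trains, rose from 135 and 129 to 793 and 841 (2.62, adjusted p = 3.97e-05).

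Regulators of ciliogenesis went both ways, with 4 of 14 higher and 3 lower, shares near the 22.3% and 21.4% of all genes. Of 16 regulators measured, MCIDAS and ccno fell below the filter on low values and were not tested. The multiciliated cell regulator myb went from 621 and 418 reads to 7.32 and 5.02 (-6.17), and tp73 from 75.4 and 266 to 9.76 and 5.02 (-4.15). In contrast rfx4, an RFX factor of neural tissue, rose from 10.6 and 15.3 to 1563 and 1320.1 (6.71), and foxn4 and rfx3 rose by 3.32 and 3.37. The forkhead gene foxj1, the main regulator of motile cilia, had 1518 and 879.8 reads in untreated caps and 1921 and 1345 in noggin caps, with overlap.

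Markers of cell types moved with these genes. The summed level of 14 epidermal markers was 751480 to 860408 in untreated and 15272 to 23113 in noggin caps, and 13 of them fell. The sum of 4 ionocyte markers went from 21791 to 37239 down to 35.1 to 36.6. The sum of 7 neural progenitor markers was 328 to 375 and then 17135 to 18548, with 6 higher. For 8 floor plate markers it was 192 to 370 and then 4085 to 4264, and 2 of them, shh and arx, were at 0 in both untreated libraries. The part of these cell types in the difference between axoneme and transport genes was not tested.

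**Figure D2:**
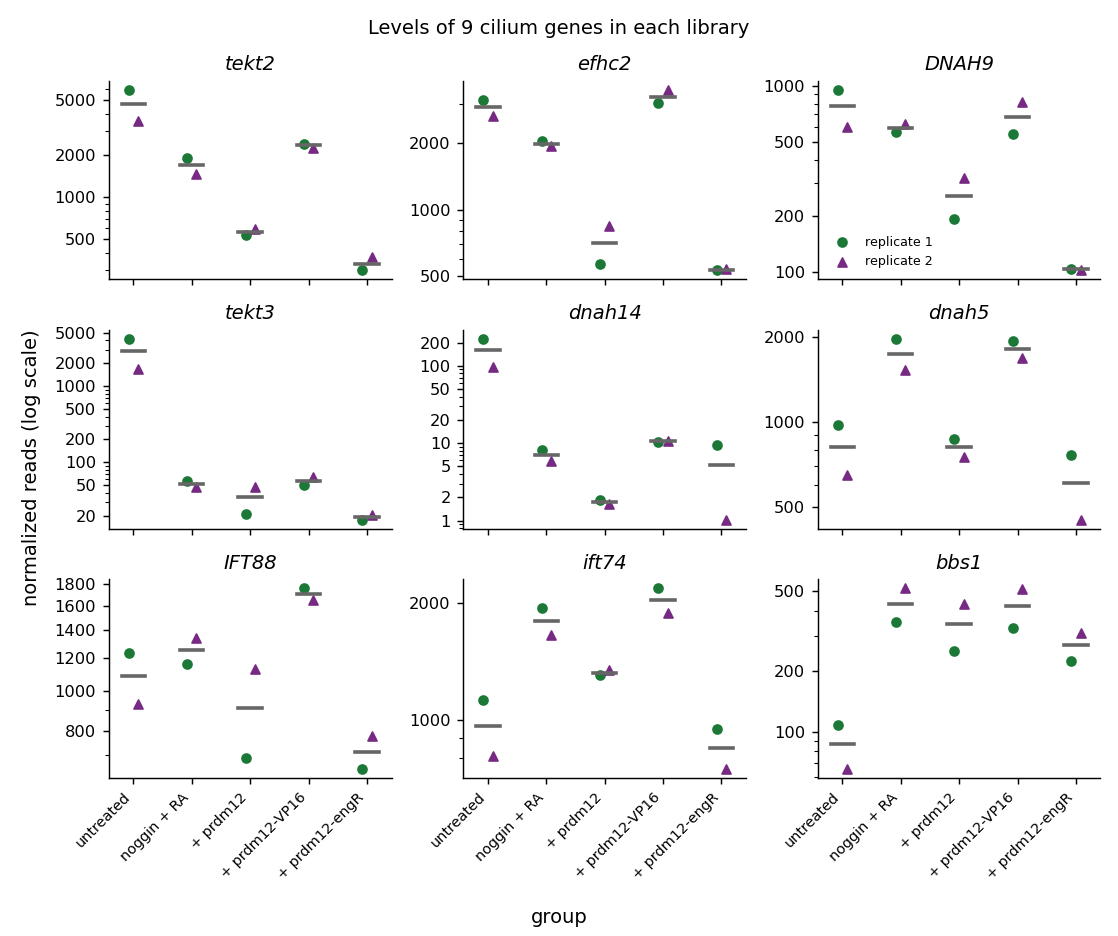
Normalized reads of 9 cilium genes (log axis, each with its own range) by group. Circles are replicate 1, triangles replicate 2 and bars the group mean. The genes tekt2, efhc2 and DNAH9 are lowest with engR and next lowest with prdm12, and tekt3 drops at the step from untreated to noggin caps.

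When wild-type prdm12 was added to noggin caps, limma called 0 of 54 genes, beside 0.162% of all genes tested. At an unadjusted p under 0.05 there were 14, all axoneme genes, beside 828 of the 12937 genes tested. Of the 54, edgeR called 0 and DESeq2 called 4, all lower, and over all genes DESeq2 called 48 lower and 202 higher. All 31 axoneme genes had a log2 difference below 0, with a median of -1.04, against -0.28 in the transport genes and 0.03 over all genes. The axoneme levels were a median of 49.6% of the noggin level and the transport levels 80.8%. Libraries did not overlap, with prdm12 lower, for 24 axoneme and 10 transport genes, beside 13.4% of all genes.

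The lowest p belonged to efhc2, which had 2037 and 1936 reads in noggin caps and 565 and 841 with prdm12 (-1.52, SE 0.23, adjusted p = 0.0606). The tekt2 line had 1929 and 1465 against 536 and 596 (-1.57, SE 0.28, adjusted p = 0.113). For DNAH9 the values were 562 and 624 against 192 and 318 (-1.26, SE 0.35, adjusted p = 0.371). In each of these 3 genes both prdm12 libraries lay below both noggin libraries. The fit with the replicate block called 4 axoneme genes lower, beside 0.147% of all genes: efhc2 (adjusted p = 0.0262), tekt2 (0.0444), DNAH1 (0.0453) and dnah5 (0.0457).

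By role, the doublet wall had a median of -1.27, the dynein heavy chains -1.14 and the radial spokes -1.0. The central pair (-0.65), the dynein intermediate and light chains (-0.61) and the assembly factors (-0.17) differed less. The assembly factor spag1 had 654 and 507 reads in noggin caps and 628 and 417 with prdm12, and dnaaf2 had 200.01 and 129 against 191 and 134, so both overlapped. In transport, the median was -0.41 over the intraflagellar transport genes and -0.10 over the BBSome list with its assembly factors. IFT88 had 1159 and 1339 reads against 687 and 1124, and bbs1 350.4 and 517 against 254 and 434. These transport genes were not called, with or without the block.

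**Figure D3:**
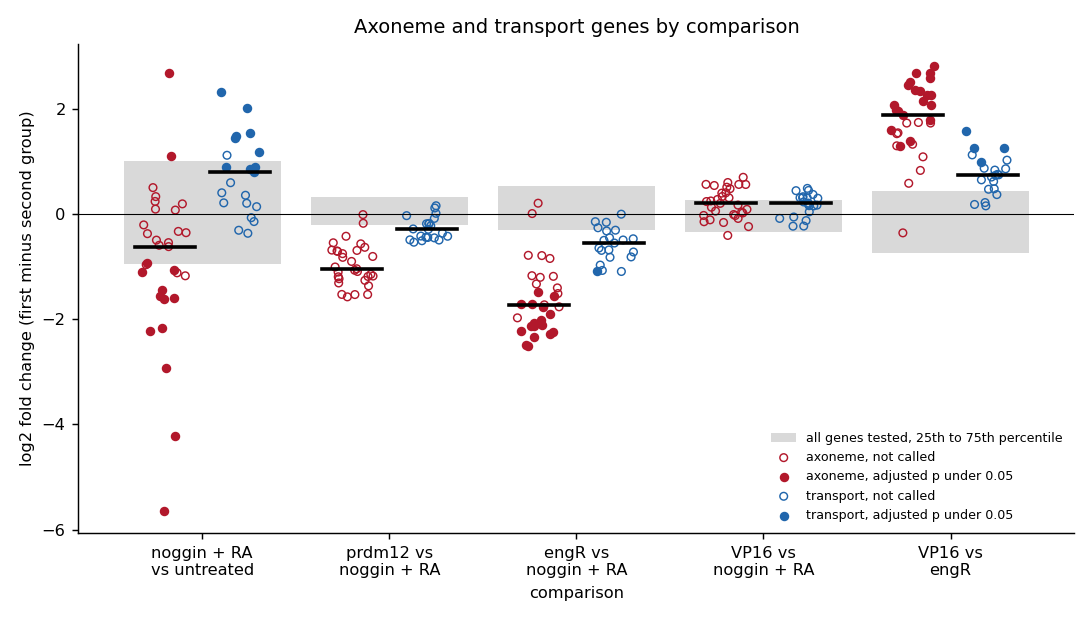
Log2 fold change of each axoneme gene (red) and transport gene (blue) in 5 comparisons. Filled points were called, black lines are medians, and grey boxes span the 25th to 75th percentile of all genes tested. The axoneme medians lie at -0.61, -1.04, -1.72, 0.21 and 1.89 from left to right, and the transport medians at 0.81, -0.28, -0.55, 0.21 and 0.75.

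With the engR fusion, most genes of both classes lay lower than in noggin caps, and mainly axoneme genes were called. Against noggin caps, 17 of 31 axoneme genes and 1 of 21 transport genes were called lower, beside 1.02% of all genes lower, and 0 were called higher, beside 2.41%. The median log2 fold change was -1.72 in the axoneme, -0.55 in transport and 0.03 over all genes. Below 0 were 29 of 31 axoneme and 20 of 21 transport genes. Libraries did not overlap, with engR lower, for 28 axoneme and 15 transport genes, beside 2597 of all 12937 genes. In the axoneme, 26 of 31 genes lay below every transport gene, and 26 were at under 50% of their noggin mean, against 3 transport genes. The engR level was a median of 29.7% of the noggin level for the axoneme (17.4% to 116%) and 70.3% for transport. These comparisons with noggin caps share the 2 noggin libraries.

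In the doublet wall, efhc2 and 3 of 4 tektin genes fell. The tekt2 line had 1929 and 1465 reads in noggin caps and 299 and 371 with engR (-2.33, SE 0.28, adjusted p = 0.00831). For efhc2 the engR libraries held 531 and 538 reads (-1.89, SE 0.23, adjusted p = 0.00890). The 2 groups did not overlap for either gene, as for 2597 of all 12937 genes in the same direction. The tektins tekt1 and tekt4 fell by 2.12 and 2.06, while tekt3, at 17.7 and 20.6 reads against 56.9 and 47.7, was not called (-1.40, adjusted p = 0.237).

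Of the 11 dynein heavy chains, 6 fell. DNAH9 had 562 and 624 reads in noggin caps and 104 and 102 with engR (-2.51, SE 0.35, adjusted p = 0.0127). The inner-arm gene dnah7 went from 1864 and 1789 to 445 and 333 (-2.24, SE 0.32, adjusted p = 0.0136), and DNAH1 from 104 and 82.0 to 20.9 and 17.5 (-2.21). DNAH6 and DNAH10 fell by 2.29 and 2.01. The outer-arm gene dnah5, which had risen with noggin, fell by 1.55, from 1960.2 and 1523 to 764 and 453 reads (adjusted p = 0.0384). The low gene dnah14 had 8.13 and 5.86 reads in noggin caps and 9.39 and 1.03 with engR, with overlap.

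The dynein chains dnali1 and dnai2 fell by 2.11 and 1.48 (adjusted p = 0.0214 and 0.0403). In the radial spokes, the stalk gene rsph3 went from 1429 and 1232 to 390.01 and 385 reads (-1.77, SE 0.23, adjusted p = 0.0105). The spoke genes rsph1 and rsph6a fell by 2.12 and 1.70. The central pair gene spag17 had 168 and 136 reads in noggin caps and 55.3 and 25.8 with engR (-1.97, adjusted p = 0.0743, and 0.0175 with the replicate block). Of the assembly factors DNAAF1 fell, from 112 and 102 to 33.4 and 30.9 (-1.71, adjusted p = 0.0437). For the other assembly factors the libraries overlapped: spag1 had 604 and 738 reads with engR (0.21, adjusted p = 0.811) and dnaaf2 had 165 and 160 (0.01, adjusted p = 0.994).

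In transport, ift74, a core subunit of the transport trains, fell from 1942 and 1649 to 948 and 749 reads (-1.09, SE 0.24, adjusted p = 0.0490). Its partner ift81 had 489 and 479 against 259 and 199.9 (-1.09, adjusted p = 0.0722, and 0.0279 with the replicate block). The block called 3 transport genes, the third being ift80, and 23 axoneme genes, beside 3.72% of all genes lower. The BBSome list with its assembly factors had 0 of 8 genes called with or without the block, by edgeR or by DESeq2. The differences ran from -0.68 to 0.00, and 0 of the 8 had an unadjusted limma p under 0.05. The values of bbs9 (247 and 361 against 210 and 345) and BBS7 (384 and 326 against 374 and 336) overlapped.

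The calls need all 4 libraries: without noggin replicate 1 and without either engR replicate limma called 0 of the 54 genes, and without noggin replicate 2 it called 1. Over all genes it then called between 4 and 52, against 444. The difference was about as large in each engR library, including replicate 1, whose labels conflict. The median axoneme difference from the noggin mean was -1.88 in engR replicate 1 and -1.79 in replicate 2, against 0.00 and 0.30 in the VP16 libraries.

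Of 38 other axoneme genes 15 fell with engR and 0 rose (median -1.57), and 28 fell with the block. The dynein docking gene ttc25 went from 1141 and 1206 to 325 and 358 reads (-1.78, adjusted p = 0.0147). The inner-arm gene wdr63 went from 497 and 433 to 94.9 and 88.6 (-2.33, adjusted p = 0.0111). Of 25 other transport genes 2 fell, TTC26 (-1.39) and ttc30a (-1.27), and 5 with the block. Both code for train subunits. The 25 include another line with the symbol ttc26, which limma without the block did not call. Over all genes 1.02% were lower, and 3.72% with the block. Of 14 basal body genes limma called 0 (2 with the block), edgeR 0 and DESeq2 3, with 4 at an unadjusted p under 0.05.

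Of 14 cilium regulators, 2 fell with engR (5 with the block), beside 1.02% of all genes lower (3.72% with the block). None of the 14 was called higher. Their median was -0.26, with 9 below 0 and 5 above, and the highest difference was 1.93. The foxj1 line had 1921 and 1345 reads in noggin caps, 699 and 721 with prdm12, and 575 and 454 with engR (-1.65 for engR, adjusted p = 0.0284). For rfx4 the noggin values of 1563 and 1320.1 became 407 and 329 with engR (-1.97, adjusted p = 0.0348). The foxj1 difference with prdm12 was not called (-1.18, adjusted p = 0.321).

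Markers of neural tissue, epidermis and endoderm moved beside these genes. The summed neural progenitor markers were 17135 to 18548 in noggin caps, 9752 to 12940 with prdm12 and 9339 to 10447 with engR. With engR 2 of these 7 were called lower, and the median was -0.59, with 4 genes below 0 and 3 above. The summed neuron markers were higher, 19272 to 30742 in noggin caps, 33370 to 42578 with prdm12 and 38385 to 44636 with engR. Of these 6 markers 0 were called with engR (median 0.22, 3 above 0 and 3 below). The summed floor plate markers were 4085 to 4264 in noggin caps, 2172 to 2747 with prdm12 and 3265 to 3306 with engR. Among them foxa2 rose with engR, from 65.9 and 51.0 to 1100.2 and 755 reads (3.95, adjusted p = 0.00379). It was the only 1 called of the 6 floor plate markers tested. Their median was -0.34, with 4 below 0 and 2 above. The summed epidermal markers were 15272 to 23113 in noggin caps and 27168 to 32054 with engR, with 2 of 14 called higher (7 with the block) and a median of 2.18. The sums over 5 endoderm markers went from 4106 to 5624 up to 18395 to 22517, with 1 of the 4 tested called higher. The part of these cell types in the axoneme difference was not tested.

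With the VP16 fusion, 0 of 54 genes were called against noggin caps, beside 0% of all genes, with 1 of the 54 genes at an unadjusted p under 0.05, beside 868 of all 12937, and 0 calls of the 54 by edgeR or DESeq2. The median difference was 0.21 in both classes. The efhc2 line, the one with the unadjusted p under 0.05, had 3019 and 3471 reads with VP16 against 2037 and 1936 (0.70, SE 0.23, adjusted p = 0.589). The tekt2 line had 2436 and 2282 against 1929 and 1465, and DNAH9 551 and 812 against 562 and 624. The VP16 libraries lay above noggin for efhc2 and tekt2, as for 1851 of all 12937 genes, and overlapped with it for DNAH9.

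The 2 fusions differed from each other in 24 of the 54 genes, all higher with VP16, beside 3.42% of all genes higher. Of these 20 were axoneme genes and 4 transport genes, and the medians were 1.89 and 0.75, against -0.02 over all genes. The 18 genes called lower with engR against noggin caps were all among the 24, but both comparisons use the same engR libraries and are not independent. The tekt2 line had 2436 and 2282 reads with VP16 and 299 and 371 with engR (2.82, SE 0.28, adjusted p = 0.00176). For tekt1 the values were 1966 and 1490.3 against 264 and 266 (2.69), and for DNAH9 551 and 812 against 104 and 102 (2.69). For efhc2 they were 3019 and 3471 against 531 and 538 (2.60, adjusted p = 0.00111). In these 4 genes every VP16 library was above every engR library, a description for which the share of all genes is not reported here.

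By role, 5 of 6 doublet wall genes, 8 of 11 dynein heavy chains, 3 of 4 intermediate or light chains, 3 of 5 radial spoke genes and 1 of 3 assembly factors were higher with VP16. In transport the 4 genes were ift81 (1.58), IFT88 (1.26), ift74 (1.26) and ift46 (1.00), which all code for the B complex of the trains. IFT88 had 1760.4 and 1647 reads with VP16 and 649 and 777 with engR (SE 0.28, adjusted p = 0.0247). With the replicate block 9 transport and 26 axoneme genes were called, beside 10.6% of all genes. The assembly factor spag1 had 484 and 565 reads with VP16 against 604 and 738 with engR, a difference of -0.35 that was not called. Without either engR replicate many of the 24 calls were lost, and most of the calls over all genes were lost as well.

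Of 38 other axoneme genes 29 were higher with VP16 than with engR (median 1.96), as were 6 of 25 other transport genes, with 1 lower. Among the 14 regulators tested, foxj1 (2108 and 1889 against 575 and 454 reads, log2 fold change 1.96), rfx4 (2.35), foxn4 (1.71), rfx2 (1.15) and e2f5 (1.23) were higher. Not every regulator was higher with VP16: the largest regulator difference from noggin caps was 1.93 with engR and 0.46 with VP16. The summed neural progenitor markers were 22405 to 23993 with VP16 and 9339 to 10447 with engR, with 3 of 7 called higher. The sums over 5 endoderm markers were 2358 to 2737 and 18395 to 22517, with 4 of the 4 tested called lower. Of 14 epidermal markers 5 were called lower and 1 higher (median -1.80), although their sum was 34861 to 57526 with VP16 and 27168 to 32054 with engR. The summed neuron markers were 6084 to 20620.1 and 38385 to 44636, with 2 of 6 called lower. Also called lower were 2 of 5 goblet or small secretory cell markers, 1 of 4 ionocyte markers and, among the floor plate markers, foxa2. Over all 12937 genes, 1567 were called between the fusions, of which 442 were higher with VP16 and the rest lower. The part of these cell types in the difference was not tested.

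Against wild-type prdm12, the VP16 fusion gave 6 calls, all higher and all axoneme genes, beside 0.758% of all genes higher. The genes were efhc2 (2.23, adjusted p = 0.00388), tekt2 (2.06, 0.0103), DNAH1 (1.77, 0.0292), tekt1 (1.63, 0.0308), dnah7 (1.46, 0.0493) and rsph3 (1.32, 0.0241). The values of efhc2 were 3019 and 3471 with VP16 and 565 and 841 with prdm12. The medians were 1.11 in the axoneme and 0.39 in transport. With the replicate block 15 axoneme and 5 transport genes were higher, beside 4.83% of all genes. Most of the 6 calls were lost without either prdm12 replicate, VP16 replicate 1 or either engR replicate. The calls over all genes fell in each of these fits as well. Of the markers, 3 of 7 for neural progenitors were called higher with VP16 than with prdm12 (median 1.11, sums 22405 to 23993 against 9752 to 12940). All 4 endoderm markers tested were called lower (median -2.65), and the sums over the 5 measured were 2358 to 2737 against 10622 to 12874. Also called lower were 1 of 5 goblet or small secretory cell markers and 1 of 6 neuron markers (sums 6084 to 20620.1 against 33369.8 to 42578). Of 14 epidermal markers 1 was called higher and 0 lower (sums 34861 to 57526 against 20995 to 24255). Their median was -0.10, with 7 above 0 and 7 below, and the block called 2 higher and 2 lower. Over all 12937 genes, 402 were called lower with VP16 than with prdm12. The part of these cell types in the difference was not tested.

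Against wild-type prdm12, the engR fusion gave 0 calls, beside 0% of all genes, with 16 of the 54 genes at an unadjusted p under 0.05, beside 679 of all 12937, and 0 calls of the 54 by edgeR or DESeq2. The median difference was -0.76 in the axoneme and -0.30 in transport. The tekt2 line had 299 and 371 reads with engR and 536 and 596 with prdm12, without overlap. For efhc2 they were 531 and 538 against 565 and 841, also without overlap. The share of all genes without overlap is not reported here for this comparison.

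The order of the group means was shared by most axoneme genes. In 29 of 31 the order engR, prdm12, noggin held from low to high, and in 22 VP16 stood above noggin as well. In transport the same orders held for 17 and 12 of 21 genes. The engR mean was the lowest of the 5 groups in 28 axoneme and 10 transport genes, while the untreated mean was the highest in 19 axoneme genes and 1 transport gene and the lowest in 1 and 11. How many of all genes share these orders is not reported here. For the neighbours engR and prdm12, prdm12 and noggin, and noggin and VP16, limma without the block called 0 of the 54 genes, edgeR called 0 and DESeq2 called 4, all between prdm12 and noggin. The efhc2 means ran 534, 703, 1986 and 3245 over engR, prdm12, noggin and VP16, and those of IFT88 713, 906, 1249 and 1704.

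Neural induction and the fusions did not rank the genes alike. Across the 31 axoneme genes, the noggin against untreated difference and the VP16 against engR difference, which share no library, had a Pearson r of 0.02, and across 21 transport genes -0.22. The Spearman rank correlations were -0.04 and -0.18. These are descriptions across genes, which are not independent replicates. By calls, 8 axoneme genes fell with noggin and again with engR, 8 fell with engR without a call for noggin, and dnah5 rose with noggin and fell with engR. In transport 9 of the 10 genes that rose with noggin had no call between noggin and engR, and ift74 was the exception. These counts are not independent, since the noggin libraries stand on opposite sides of the differences from untreated and engR caps.

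**Figure D4:**
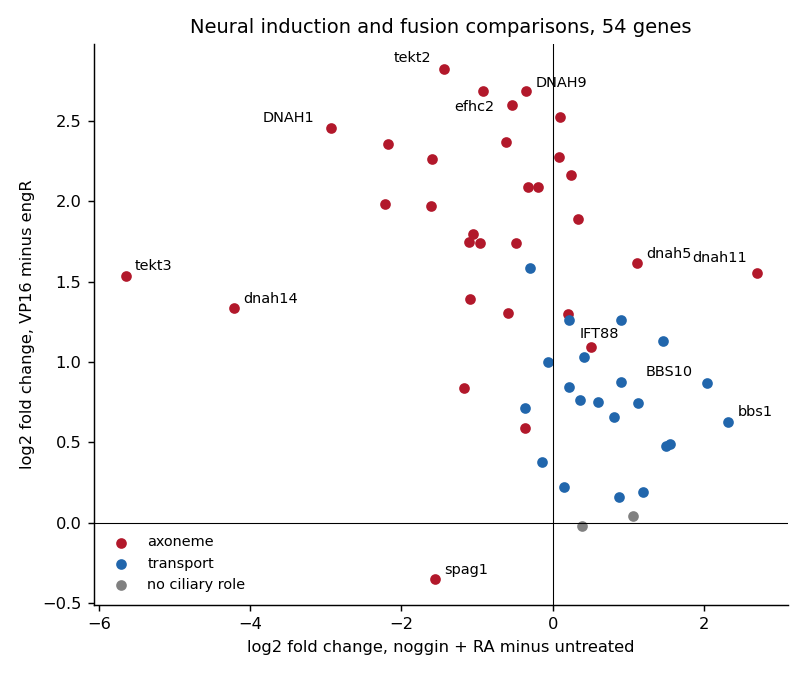
Log2 fold change of noggin against untreated caps (horizontal) and of VP16 against engR (vertical) for the 54 genes. Axoneme genes (red) spread from tekt3 at -5.65 to dnah11 at 2.70 along the horizontal axis and mostly stand above 1 on the vertical, while transport genes (blue) lie lower and to the right.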

How the data were processed

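Poly-A RNA libraries from 10 samples in 5 groups of 2 were analysed. Each gene's value is a normalized signal in the table the authors deposited, and the values show it to be a whole read count divided by a library factor. In each library 100% of values were whole multiples of 1 read within 0.05. The submitters' processing notes name Bowtie2, Bowtie, edgeR and HOMER without their roles. Neither counter nor genome build is given in the sources used here. The kit keeps no strand, per the labels' protocols. The length column of the table is the genomic span of the gene and was not used. Homeologous copies share 1 line, so close paralogs and overlapping genes are uncertain. Peak lists were not used here. The counts include 1 gene whose own values are not reported here.

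Untreated columns carry a code and were matched because every other column names its construct. The members, roles and other gene lists were chosen with earlier results of these data known. Genes with a mean of at least 10, in number 12937, were tested on log2(value + 1) with limma 3.58.1 (R 4.3.3, trend on the mean level). A joint model of all libraries held the group as its term, two-sided, with Benjamini-Hochberg adjustment over all genes per comparison. Residual degrees of freedom were 5 and prior degrees 3.171. Every adjusted p is from this test unless the block is named, and the scripts were tested on simulated data. Alternatives were edgeR 4.0.16 (quasi-likelihood) and DESeq2 1.42.0 on recovered reads, pseudocounts, filters, scalings, fewer groups, a replicate block and leaving out each library. Over all 10 pairs of groups, the replicate 1 minus 2 differences of genes had correlations of 0.222 to 0.791. Pairs with untreated caps reached at most 0.251. From these values the numbers were taken to pair the libraries in the fit with the block. The main fit held no such pairing, nor do the counts and adjusted p given without the block. Named genes were efhc2, tekt2, DNAH9 and prdm12, up to 3 per role by smallest p, up to 6 called per class and direction by size, the extremes of each role, members called with 1 construct only, and up to 4 per other list. Of these the text names a part, and other genes of the rule by symbol, some chosen after their values were seen.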

Additional observations from a re-analysis of the deposited data

How the results depend on the processing

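Of the 54 genes, those called against noggin caps with prdm12 numbered 0, and became 1 with a pseudocount of 4, 1 with quantile normalization, 4 with the replicate block and 4 with DESeq2. With engR the 18 became 11 in a fit of the 2 groups alone. For VP16 against prdm12 the 6 became 0 in the 2 groups alone, 20 with the block and 15 with DESeq2. For VP16 against engR the 24 became 12 in the 2 groups alone. Over all genes, the fit of the 2 groups alone called 307 for engR against noggin, beside 444 in the main fit. It called 0 for VP16 against prdm12, beside 500, and 640 for VP16 against engR, beside 1567. The cause was not tested. The block moved no other count over the 54 genes by over 1.5 times.

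Leaving out 1 library at a time gave 13 to 22 calls for noggin against untreated caps, 0 to 16 for engR against noggin, 1 to 7 for VP16 against prdm12 and 10 to 24 for VP16 against engR, and 0 to 0 in the other 3 comparisons. A group left with 1 library is assumed to vary like the others. The VP16 against noggin difference of DNAH9 turned from 0.18 to -0.10 without VP16 replicate 2, the lowest of its range, which reached 0.45. No other single-gene difference tried in this way changed sign.

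Over all genes, the calls moved by over 1.5 times with the block to 121, 44, 1414, 2125, 13 and 3770, and with DESeq2 to 250, 127, 1169, 1310, 179 and 2413. These orders are prdm12, VP16 and engR against noggin, VP16 and engR against prdm12, and VP16 against engR. Without the block they were 21, 0, 444, 500, 0 and 1567. Quantile normalization moved the median of all genes to -0.13 in engR against noggin, 0.14 in VP16 against prdm12 and 0.20 in VP16 against engR. The class medians kept their sign under each scaling.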

Other observations

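Of the 54 genes, 17 had no call in any of the 7 comparisons, and 7 of these were axoneme genes: dnaaf2, dnah2, dnal1, rsph10b, rsph9, spag17 and spag6. The central pair gene spag6 had 2525 and 1204 normalized reads in untreated caps and 3159 and 1948 in noggin caps. Among the 8 transport genes without a call, bbs5 had 592 and 837 in noggin caps and 485 and 550.2 with engR. The genes without a ciliary role, spag7 and spag9, had engR means of 101% and 112% of the noggin mean.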
